A study of Rattus norvegicus with 48 samples.

Results

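Serum from 8 rats treated with an anti-sclerostin antibody was compared between ZDF rats (4 libraries) and WT rats (4 libraries), which are 8 of the 48 small RNA libraries of the study. The libraries were chosen by their deposited labels of tissue, genotype and treatment, and no measured value entered that choice. The genotype was taken from the group label, since the sample titles begin with ZDF for sera of both genotypes, and no miRNA in the counts checks it independently. ZDF rats (fa/fa) carry a homozygous leptin receptor mutation and develop type 2 diabetes, and the WT animals were Zucker lean rats (+/+) used as non-diabetic controls. All animals were male, were fed a high-fat, high-carbohydrate chow and had received a subcritical defect of the femur, so diet and injury were shared by both groups. Both groups received the antibody for 12 weeks before serum was taken. The other serum groups, used here only where named, were placebo and PTH (parathyroid hormone) in both genotypes, with 5 libraries each, and insulin in ZDF rats with 4. The paper credits the antibody-treated rats to a different earlier study than the placebo, PTH and insulin rats. Dosing also differed, with the antibody given less often than the other treatments. Nothing beyond the sample labels says whether libraries of a group were prepared apart, so p-values measure the spread between these libraries.

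Sclerostin is secreted by osteocytes and restrains Wnt signalling in osteoblasts, and antibodies against it raise bone formation. MicroRNAs (miRNAs) are short RNAs that pair with mRNAs mainly through the seed at their 5′ end and lower the output of these mRNAs. They leave cells in vesicles, protein complexes and lipoproteins or through cell damage, and serum therefore holds miRNAs of blood cells together with those of liver, muscle, endocrine organs and other tissues. In serum, a higher release per cell and a larger number of releasing cells cannot be told apart.

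Selected miRNAs that later paragraphs describe are shown first, and none of them passed the threshold of the main test. They are mature RefSeq sequences on the rat build GRCr8 in 5′ to 3′ direction, with the seed (bases 2 to 8) in capitals. The reference table held sequences for 142 of the 161 miRNAs that were tested. MiR-375-3p, an islet and endocrine miRNA, had the lowest p-value of the comparison. MiR-22-3p, miR-29b-3p and miR-193b-3p were among the miRNAs whose groups did not overlap. MiR-192-5p, enriched in liver and gut, and miR-31a-5p, abundant in epithelia, separated only some of the ZDF sera from WT.
miR-375-3p: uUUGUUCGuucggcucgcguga
miR-22-3p: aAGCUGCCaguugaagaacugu
miR-29b-3p: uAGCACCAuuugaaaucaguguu
miR-29a-3p: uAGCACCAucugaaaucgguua
miR-29c-3p: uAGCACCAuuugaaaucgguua
miR-193b-3p: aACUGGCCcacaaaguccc
miR-193a-3p: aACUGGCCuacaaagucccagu
miR-192-5p: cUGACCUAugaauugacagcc
miR-31a-5p: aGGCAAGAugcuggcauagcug
miR-1247-5p: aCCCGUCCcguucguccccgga

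MiR-29a-3p, miR-29b-3p and miR-29c-3p shared the seed AGCACCA, and miR-193a-3p and miR-193b-3p shared the seed ACUGGCC. Among the 142 tested miRNAs with a sequence, no other had the seed of miR-375-3p, miR-22-3p, miR-192-5p or miR-31a-5p. Over their 19 shared bases miR-193a-3p and miR-193b-3p differed at 1 position (U9C, counted from 1 at the 5′ end, with the base of miR-193a-3p first), and miR-29a-3p and miR-29c-3p also differed at 1 of 22 positions (C10U, with the base of miR-29a-3p first). Reads of such near-identical miRNAs may have been exchanged in the counting, so the split between these members is uncertain. MiR-29b-3p differed from miR-29a-3p at 4 and from miR-29c-3p at 3 positions.

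MiR-375-3p maps to the minus strand of chr9:83906591-83906612, within the spans of the annotated protein-coding genes Cryba2 and LOC134480387. MiR-22-3p maps to the plus strand of chr10:60805387-60805408, outside other annotated genes. MiR-29b-3p has copies on the minus strand of chr4:60618342-60618364 and the plus strand of chr13:109098882-109098904, which start 374 bases from miR-29a-3p and 530 bases from miR-29c-3p. The chr13 copy of miR-29b-3p lies within the span of a long non-coding RNA gene. MiR-193b-3p lies at chr10:1824994-1825012 and miR-193a-3p at chr10:65170370-65170391, both on the plus strand. The first is within the span of a long non-coding RNA gene and the second within that of the protein-coding gene Faul2. MiR-192-5p lies on the plus strand of chr1:212994232-212994252. MiR-31a-5p lies on the minus strand of chr5:108714906-108714927 in the span of a long non-coding RNA gene, and miR-1247-5p on the minus strand of chr6:135105931-135105952. Gene spans alone were used, so exons and introns were not resolved.

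The 8 libraries held 3263916 to 8587371 reads, of which 0.529 to 2.96% were counted on miRNAs, giving 28015 to 161686 miRNA reads per library. Neither miRNA reads (exact permutation test, two-sided, p = 0.457), nor miRNA reads per extraction control (p = 0.6), nor the hemolysis ratio, which sets miR-451-5p of erythrocytes against miR-23a-3p, (p = 0.629) separated ZDF from WT in the same exact test. A level of 3 reads, used here as the floor of counting, corresponded to 18.8 to 107 CPM (counts scaled to the miRNA reads of the library). CPM were scaled by the trimmed mean of M-values (TMM). No 2 libraries of a group agreed within sampling noise (chi-square per degree of freedom 21.0 to 149.5).

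The ZDF sera did not form a uniform group. Over the 161 tested miRNAs, log2 CPM of ZDF replicates 2 and 3 correlated with r = 0.975 and those of ZDF replicates 1 and 4 with r = 0.933, whereas correlations across these sera were 0.739 to 0.830. ZDF replicates 1 and 4 correlated with the WT sera at 0.877 to 0.933 and ZDF replicates 2 and 3 at 0.811 to 0.894. The WT sera correlated with each other at 0.893 to 0.952. ZDF replicates 1 and 4 were the libraries with the fewest miRNA reads, at 28015 and 33591 against 150605 and 96551. All reads of the library did not follow this division, with 5224789 and 6351837 in replicates 1 and 4 against 6605383 and 3263916 in replicates 2 and 3, whereas the share of reads counted on miRNAs did, with 0.536 and 0.529% against 2.28 and 2.96%. The WT sera had shares of 0.994 to 2.91%. The part of the miRNA share in this division was not tested. A result printed only with all sera may also rest on one pair of them. Some results are given with and without one or the other of these sera. These alternatives were chosen after the data were seen, and they keep sera that are alike, so their spread is small by choice and their values are descriptions, not tests.

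**Figure D1:**
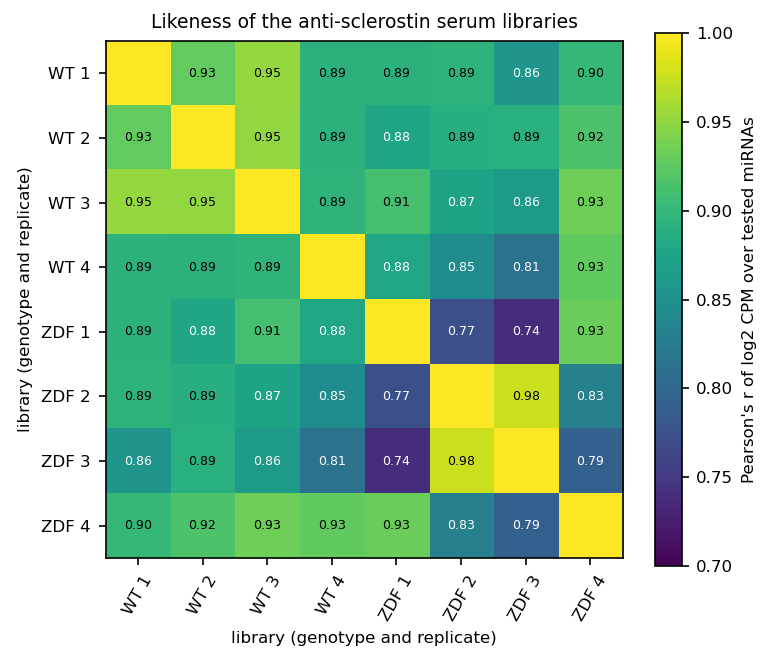
Heatmap of Pearson's r between the log2 CPM of all 8 anti-sclerostin serum libraries over the 161 tested miRNAs, with rows and columns labelled by genotype and replicate and colour giving r. The lowest correlation is that of ZDF replicates 1 and 3, at 0.739, and the highest that of ZDF replicates 2 and 3, at 0.975.

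Whether ZDF and WT sera differ under the antibody was tested for each miRNA. MiR-375-3p was about 3 times as abundant in ZDF as in WT serum and was higher in every ZDF serum than in every WT serum, but no miRNA passed the threshold of a false discovery rate (FDR) below 0.2. Of the 161 miRNAs tested 0 passed it (0% called, edgeR quasi-likelihood test with Benjamini-Hochberg adjustment), and the lowest FDR was 0.270. At an unadjusted p below 0.05 there were 11 miRNAs (6.83% of those tested), of which 10 (6.21%) were higher in ZDF and 1 (0.621%) was lower. DESeq2 on the same counts called 6 (3.73%), namely miR-375-3p, miR-122-5p, miR-22-3p, miR-193b-3p and miR-29b-3p as higher and miR-150-3p as lower. The median standard error of a log2 fold change (log2FC) was 0.48, against a median absolute log2FC of 0.37. The median log2FC was 0.077, and 99 miRNAs (61.5%) had a log2FC above 0.

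Without ZDF replicates 1 and 4, 47 of 180 tested miRNAs passed the FDR threshold (27 higher and 20 lower). Without ZDF replicates 2 and 3, 5 of 162 did (3 higher and 2 lower). Leaving out any single library gave 0. The fits with 47 and 5 calls each kept 2 ZDF libraries that resembled each other, which by itself lowers the spread and raises the count. Neither of these 2 counts is evidence of a difference between the genotypes.

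**Figure D2:**
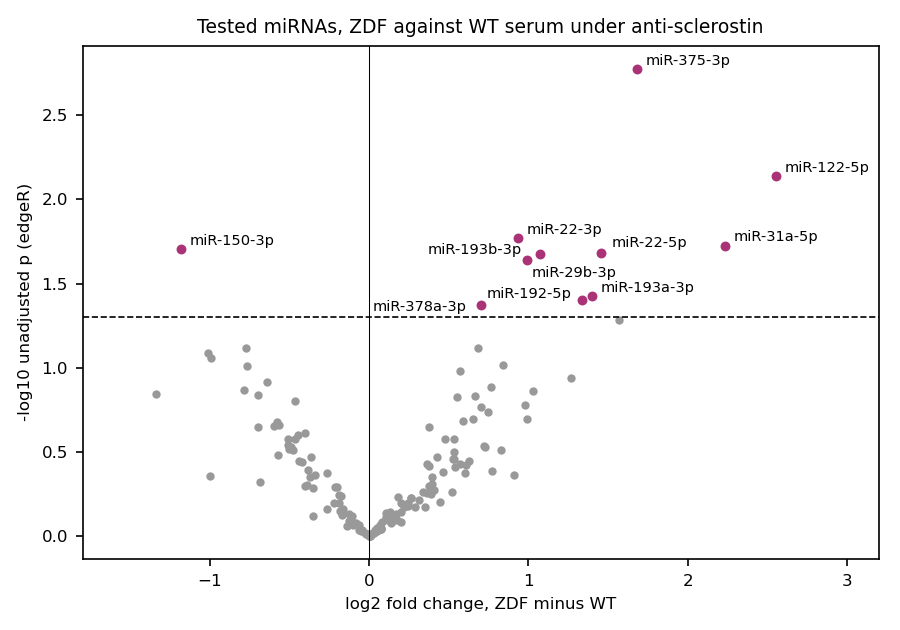
Each point is a tested miRNA, with the log2FC of ZDF minus WT on the x axis and the negative log10 of the unadjusted edgeR p on the y axis, and a dashed line at the 0.05 level. Of the 11 labelled miRNAs above the line only miR-150-3p lies left of 0, and miR-375-3p is the highest at a log2FC of 1.68.

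MiR-375-3p is enriched in pancreatic islets, where it restrains insulin secretion, and in other endocrine and gut epithelial cells. Its level in WT serum was 852, 951, 545 and 1493 CPM in replicates 1 to 4, and in ZDF serum 4263, 3672, 2222 and 2114 CPM. The groups did not overlap, and ZDF replicates 1 and 2 were highest. The means were 960 ± 395 CPM in WT and 3067 ± 1067 CPM in ZDF (SD, n = 4). The log2FC was 1.68 (SE 0.41, FDR = 0.270), with 1.40 to 1.87 when single libraries were left out. It was 1.63 without ZDF replicates 1 and 4 and 1.76 without ZDF replicates 2 and 3. MiR-217-5p, a marker of the exocrine pancreas on the same list, was at 0, 10.9, 50.1 and 737 CPM in WT and at 0, 0, 0 and 82.4 CPM in ZDF, and was mostly under the floor of 3 reads.

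The groups did not overlap for 7 tested miRNAs (4.35%), each with an exact permutation p of 0.0286, the smallest that 4 against 4 libraries can give. Besides miR-375-3p these were miR-22-3p, miR-29b-3p, miR-193b-3p, miR-378a-3p and miR-15b-3p, which were higher in ZDF, and miR-150-3p, which was lower. The exact p of 0.0286 follows from the lack of overlap itself and adds nothing to it. It is also the probability of such separation for a miRNA without a difference.

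MiR-22-3p is a ubiquitous miRNA, abundant in heart and skeletal muscle, that acts on metabolic and growth signalling. It stood at 11983, 11615, 12844 and 13534 CPM in WT serum and at 13612, 31515, 29675 and 20726 CPM in ZDF serum. The WT sera lay within a narrow band, and ZDF replicate 1 was barely above it. The log2FC was 0.94 (SE 0.34, FDR = 0.462), and 0.46 without ZDF replicates 2 and 3. The opposite arm of the same precursor, miR-22-5p, which was chosen after its values were seen, had a log2FC of 1.46 (SE 0.54) with overlapping groups, at 63.6 to 194 CPM in WT and 143 to 632 CPM in ZDF.

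MiR-29b-3p belongs to a family that targets collagen and other matrix mRNAs and that affects osteoblast differentiation and insulin signalling. It stood at 280, 394, 338 and 291 CPM in WT and at 573, 594, 1074 and 494 CPM in ZDF, so that every ZDF serum was above every WT serum. The log2FC was 1.08 (SE 0.40, FDR = 0.462), and 0.71 without ZDF replicates 2 and 3. The same-seed members were more abundant and had log2FC values of 0.57 (SE 0.33) for miR-29c-3p and 0.37 (SE 0.29) for miR-29a-3p. MiR-29c-3p was at 5895 to 10819 CPM in WT and 8911 to 13698 CPM in ZDF, and miR-29a-3p at 33504 to 46311 and 40678 to 62951 CPM. Both overlapped between the groups, and whether the members differed from each other was not tested.

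MiR-193b-3p, known from brown adipocyte differentiation, stood at 229, 262, 319 and 330 CPM in WT and at 430, 536, 590 and 714 CPM in ZDF. Its log2FC was 0.99 (SE 0.38, FDR = 0.462) with all libraries, 0.97 without ZDF replicates 1 and 4 and 1.01 without ZDF replicates 2 and 3. As for miR-375-3p, these values lay close together. The same-seed miR-193a-3p, chosen after its values were seen, had a log2FC of 1.40 (SE 0.59) but only 0.0061 without ZDF replicates 2 and 3. In ZDF serum it stood at 107, 355, 642 and 137 CPM, against 63.6 to 163 CPM in WT.

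MiR-378a-3p, encoded in an intron of the metabolic coactivator gene Ppargc1b, stood at 9045, 11024, 7778 and 9675 CPM in WT and at 11355, 19758, 16406 and 13533 CPM in ZDF. The groups were separated by the step from 11024 to 11355 CPM, and the log2FC was 0.70 (SE 0.31, FDR = 0.623). MiR-15b-3p was close to the floor at 100 to 131 CPM in WT and 137 to 251 CPM in ZDF, with 5 to 23 reads per library. Its log2FC was 0.59 (SE 0.44, FDR = 0.911).

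MiR-150 is a miRNA of mature lymphocytes. MiR-150-3p stood at 522, 886, 369.5 and 795 CPM in WT and at 179, 258, 368.6 and 302 CPM in ZDF. The groups were separated by less than 1 CPM, between WT replicate 3 and ZDF replicate 3. The log2FC was -1.18 (SE 0.44, FDR = 0.462), and -1.38 without ZDF replicates 2 and 3. MiR-150-5p, the abundant arm, had a log2FC of -1.01 (SE 0.53) with overlapping groups, at 3460 to 8738 CPM in WT and 1110 to 5381 CPM in ZDF.

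**Figure D3:**
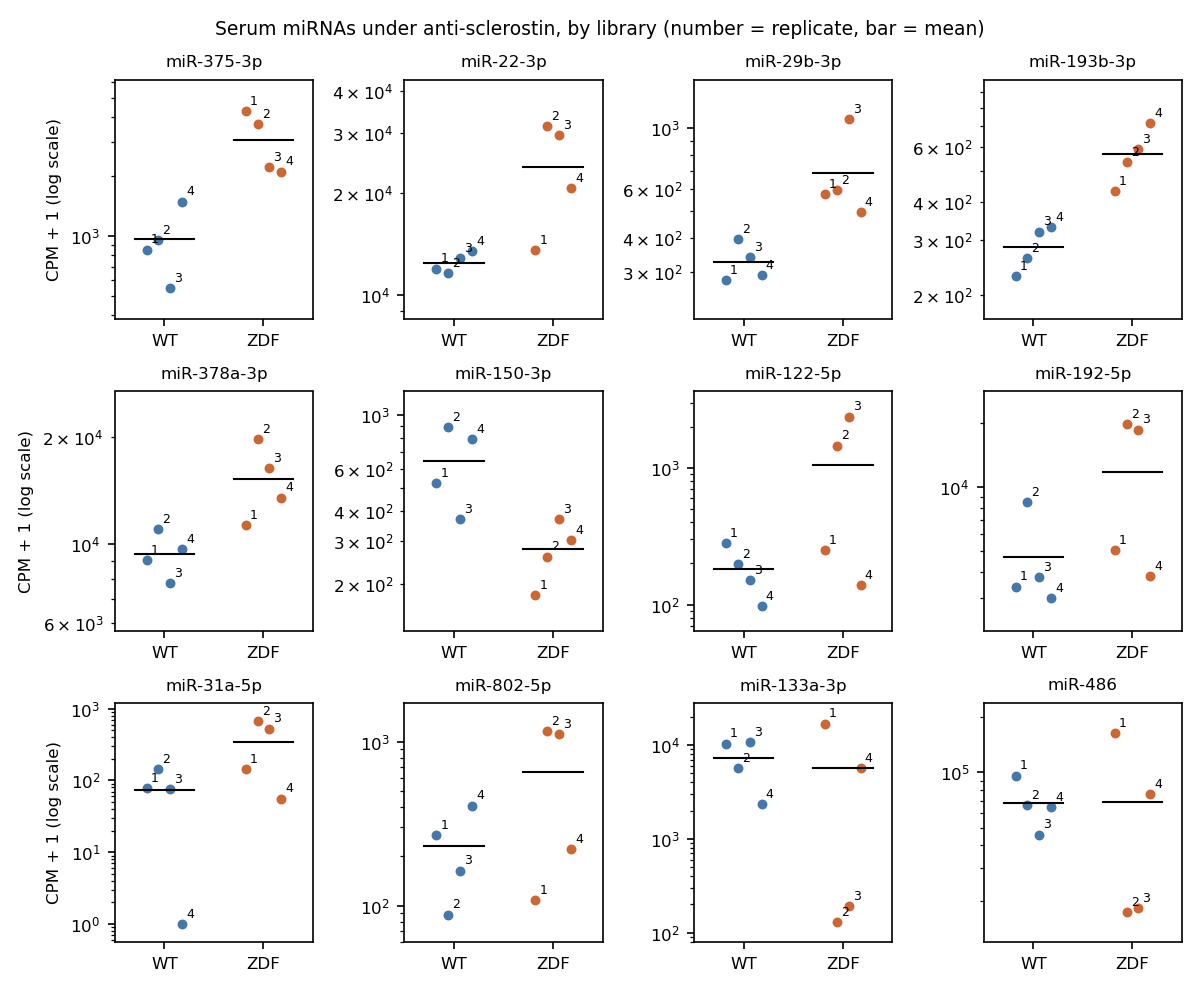
CPM plus 1 on a log axis for 12 miRNAs in each of 8 sera, with WT in blue, ZDF in orange, the replicate number beside each point and a bar at the group mean. ZDF replicates 2 and 3 are the highest for miR-122-5p, miR-192-5p, miR-31a-5p and miR-802-5p and the lowest for miR-133a-3p and miR-486, whereas all ZDF sera exceed all WT sera for miR-375-3p.

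The liver list described the division among the ZDF sera. MiR-122-5p, the predominant miRNA of hepatocytes, stood at 280, 197, 150 and 96.9 CPM in WT and at 251, 1452, 2369 and 137 CPM in ZDF. ZDF replicates 2 and 3 were above every WT serum and ZDF replicates 1 and 4 were within the WT range. Its log2FC was 2.56 (SE 0.79, FDR = 0.462), 3.37 without ZDF replicates 1 and 4 and 0.071 without ZDF replicates 2 and 3.

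MiR-192-5p stood at 3396, 8509, 3770 and 3005 CPM in WT and at 5051, 19662, 18586 and 3816 CPM in ZDF. Its log2FC of 1.34 (SE 0.58) turned to -0.071 without ZDF replicates 2 and 3. MiR-802-5p, a miRNA of liver and pancreas that is raised in obesity and impairs glucose tolerance, stood at 267, 87.5, 163 and 407 CPM in WT and at 107, 1162, 1106 and 220 CPM in ZDF. Its log2FC of 1.57 (SE 0.73) turned to -0.42 without the same sera. MiR-122-3p, removed by the filter on low counts, followed the same order with 107, 981, 1179 and 82.4 CPM in ZDF against 54.7 to 194 CPM in WT. All 8 miRNAs of the liver list had reads, 3 were tested, and all of these had a log2FC above 0 (median 1.57), with 2 of 3 at an unadjusted p below 0.05 and higher in ZDF. Over all tested miRNAs 61.5% had a log2FC above 0, the median was 0.077 and 6.21% were at that p and higher. The summed level of the list was 3820 to 8913 CPM in WT, 23514 and 23599 CPM in ZDF replicates 2 and 3, and 5624 and 4337 CPM in ZDF replicates 1 and 4. MiR-192-5p made up most of this sum in every serum, so the sum largely restates that miRNA.

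Muscle and erythrocyte miRNAs were arranged the other way round. MiR-133a-3p, a miRNA of skeletal and heart muscle, stood at 16907, 129, 190 and 5710 CPM in the ZDF sera against 2346 to 10634 CPM in WT. Its log2FC was -0.35 (SE 1.13), and the summed striated muscle list was 136 and 190 CPM in ZDF replicates 2 and 3 against 2443 to 17373 CPM in the other sera. Nearly all of this sum was miR-133a-3p. Of the 10 listed muscle miRNAs 2 were tested and both had a log2FC below 0. MiR-1-3p, the other defining muscle miRNA, was at 0 to 38.2 CPM in all sera. The erythrocyte list (miR-451-5p, miR-144-3p, miR-144-5p and miR-486) summed to 29521 and 29001 CPM in ZDF replicates 2 and 3, to 204823 and 100251 CPM in ZDF replicates 1 and 4, and to 55398 to 113051 CPM in WT. All 4 were tested, with a median log2FC of -0.019. The part of erythrocyte and muscle RNA in the CPM of other miRNAs was not tested.

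MiR-31a-5p stood at 76.3, 142, 75.1 and 0 CPM in WT and at 143, 665, 527 and 54.9 CPM in ZDF, and its log2FC was 2.24 (SE 0.82, FDR = 0.462). It was 2.91 without ZDF replicates 1 and 4, and without ZDF replicates 2 and 3 the filter on low counts removed it, so that no value was given. WT replicate 4 held 0 reads of it, which allows a level of up to 58.2 CPM. The epithelial list, to which it belongs, had 9 miRNAs with reads, 5 tested and all 5 with a log2FC above 0 (median 0.54), against 61.5% and 0.077 over all tested miRNAs. Only miR-31a-5p among them was at an unadjusted p below 0.05, as were 6.83% of all tested miRNAs.

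**Figure D4:**
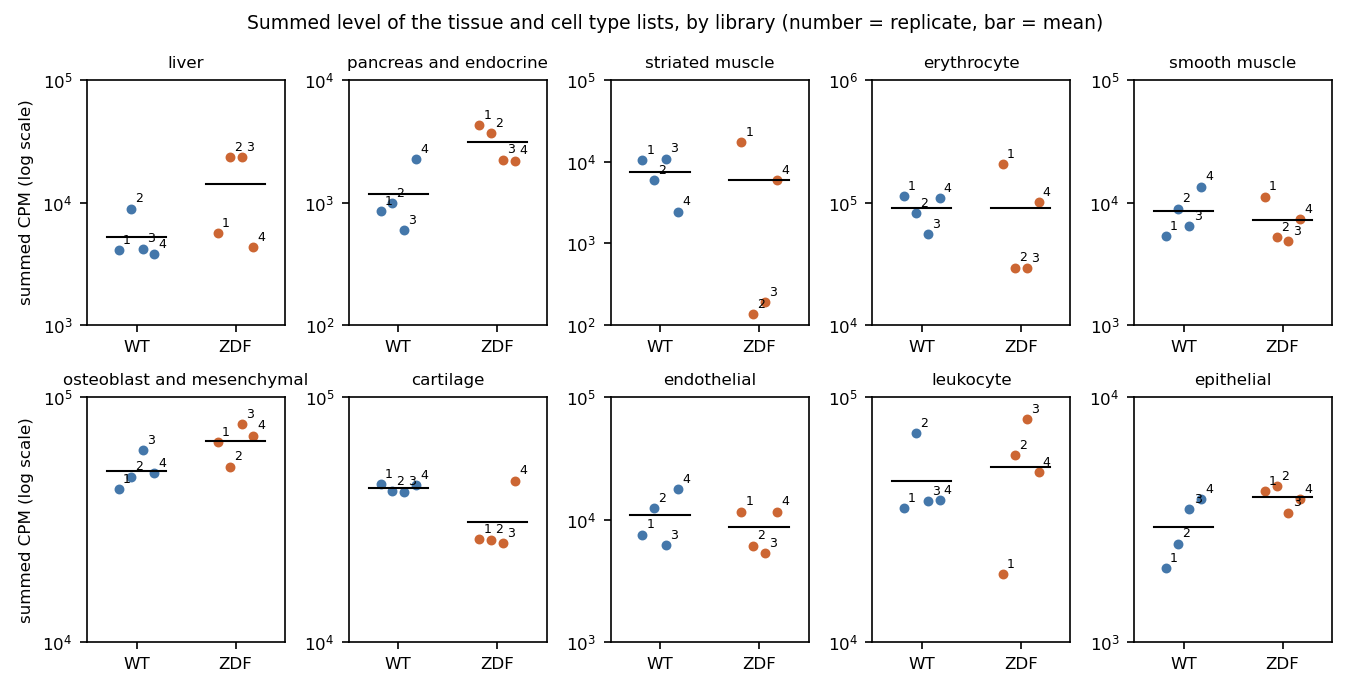
Summed CPM of each of 10 tissue and cell type lists on a log axis in each serum, with WT in blue, ZDF in orange, the replicate number beside each point and a bar at the group mean. ZDF replicates 2 and 3 are the highest for the liver list, at 23514 and 23599 CPM, and the lowest for the striated muscle list, at 136 and 190 CPM.

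Under placebo, 12 miRNAs were listed as dysregulated in ZDF serum by the study. That list came from other animals of the same series, not from the antibody-treated sera, but it was taken up here with results of those sera known. Of these 12, 10 passed the filter on low counts, 7 had a log2FC above 0 and 3 below, 4 were at an unadjusted p below 0.05 and 1 had groups without overlap. The shares over all tested miRNAs were 61.5% above 0, 6.83% at that p and 4.35% without overlap, so the counts of direction and of groups without overlap were near the background. Their median log2FC was 1.12, against 0.077 over all tested miRNAs. Without ZDF replicates 2 and 3 the log2FC was 0.071 for miR-122-5p, -0.071 for miR-192-5p and -0.42 for miR-802-5p. The filter on low counts then removed miR-31a-5p, so part of these counts rests on those 2 sera. A fit over 28 sera in 6 groups gave the genotype contrast under each treatment for all 12, and in 10 of 12 its sign was the same under placebo and under anti-sclerostin, against 98 of 198 (49.5%) over all miRNAs of that fit. In this fit 5 of 198 miRNAs (2.53%) passed the FDR threshold under placebo, 1 (0.505%) under anti-sclerostin and 0 (0%) under PTH. The contrasts of the 198 miRNAs had r = 0.546 between anti-sclerostin and placebo and r = 0.161 between anti-sclerostin and PTH, as descriptions over miRNAs that were measured in separate libraries.

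For miR-375-3p the log2FC was 2.30 (SE 0.56) under placebo and 1.67 (SE 0.62) under anti-sclerostin in this fit. For miR-122-5p it was 1.94 (SE 0.72) and 2.56 (SE 0.83), for miR-802-5p 2.71 (SE 0.76) and 1.58 (SE 0.81), and for miR-31a-5p 1.66 (SE 0.62) and 2.24 (SE 0.71). Under anti-sclerostin, miR-122-5p, miR-802-5p and miR-31a-5p were well above the WT range only in ZDF replicates 2 and 3. MiR-27a-5p, the less abundant arm of a precursor expressed in vessels and bone, was lower in ZDF under both treatments, with log2FC values of -1.89 (SE 0.61) and -1.01 (SE 0.69). The members whose sign differed were miR-145-5p, at 1.06 (SE 0.45) and -0.12 (SE 0.50), and miR-218a-5p, at -2.73 (SE 1.18) and 0.84 (SE 1.21).

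MiR-145-5p, a smooth muscle and pericyte miRNA, stood at 1476, 3631, 1728 and 5720 CPM in WT and at 2758, 3020, 2685 and 3102 CPM in ZDF under the antibody. The ZDF sera lay close together inside the WT range, and the log2FC was -0.11 (SE 0.44, FDR = 0.996). MiR-218a-5p, which promotes osteoblast differentiation, was at 860, 6.45, 21.1 and 659 CPM in ZDF against 65.6 to 351 CPM in WT. ZDF replicates 2 and 3 were below and ZDF replicates 1 and 4 above every WT serum, and the log2FC was 0.91 (SE 1.12). MiR-100-5p followed the same order, at 788, 58.1, 42.1 and 714 CPM in ZDF against 267 to 626 CPM in WT, with a log2FC of -0.14 (SE 0.83). MiR-320-3p overlapped between the groups at 8680 to 15957 CPM in WT and 12447 to 24721 CPM in ZDF (log2FC 0.55, SE 0.36). MiR-199a-3p, a mesenchymal miRNA that the filter removed, was at 25.4 to 413 CPM in WT and 27.5 to 251 CPM in ZDF.

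**Figure D5:**
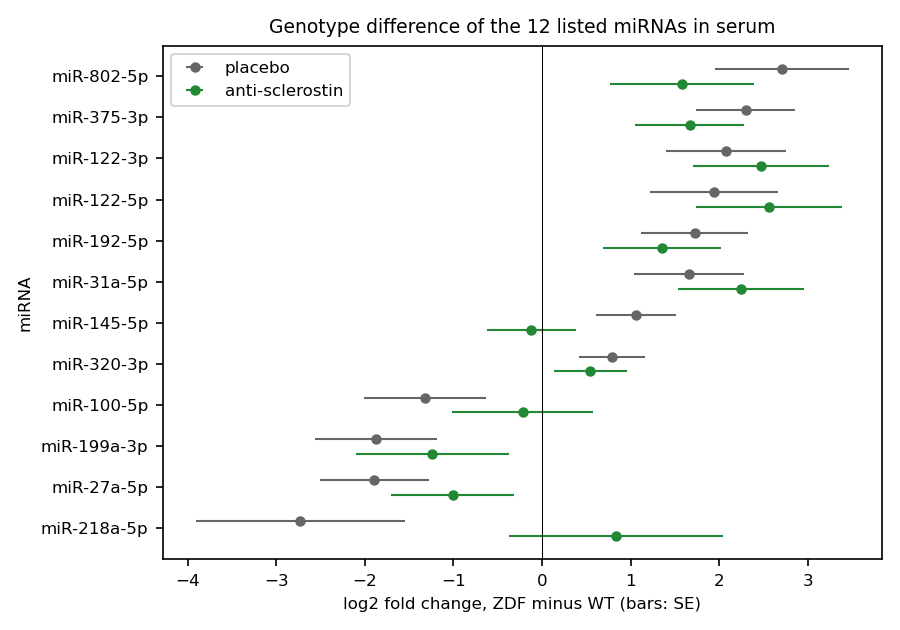
The log2FC of ZDF minus WT on the x axis for each of the 12 miRNAs listed under placebo (y axis), in grey under placebo and in green under anti-sclerostin, with bars of 1 SE from the 28-serum fit. Points of both colours lie on the same side of 0 for 10 of 12, and miR-145-5p and miR-218a-5p are the exceptions.

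Whether the genotype difference under the antibody differed from that under placebo was tested as a difference of the contrasts. Treatment cannot be told apart from source study and dosing schedule in this difference or in that against PTH. No miRNA passed the threshold (0 of 198, 0%), with 6 (3.03%) at an unadjusted p below 0.05 and 0 with DESeq2. The lowest p-values belonged to miR-150-3p, with a difference of -2.06 (SE 0.84, FDR = 0.899), miR-29b-3p, with 1.41 (SE 0.59, FDR = 0.899), and miR-30c-5p, with 1.55 (SE 0.69, FDR = 0.899). For miR-150-3p the contrast was 0.87 (SE 0.55) under placebo and -1.19 (SE 0.63) under the antibody, and for miR-29b-3p -0.35 (SE 0.39) and 1.06 (SE 0.44). For miR-145-5p the difference was -1.18 (SE 0.68) and for miR-375-3p -0.63 (SE 0.81), and neither passed the test. Against PTH the count was again 0 of 198 (0%), with 13 (6.57%) at an unadjusted p below 0.05 and 0 with DESeq2. The lowest p-values were those of miR-193a-3p at 2.22 (SE 0.82), miR-22-3p at 1.25 (SE 0.47) and miR-151-3p at -1.37 (SE 0.54), each with FDR = 0.672. The genotype contrasts under PTH had the same sign as under the antibody for 117 of 198 miRNAs (59.1%). With errors of this size a miRNA can miss the threshold without its contrasts being alike.

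The study also listed 7 miRNAs as changed by the antibody in ZDF rats. That list was chosen with the 4 ZDF sera described here, so its counts are no independent evidence. All 7 were tested, 4 with a log2FC above 0 and 3 below, and the median was 0.23. MiR-29b-3p is described above. MiR-126a-3p, the main endothelial miRNA, stood at 1984, 3718, 1597 and 4169 CPM in WT and 1827, 1542, 1200 and 2141 CPM in ZDF (log2FC -0.78, SE 0.40, FDR = 0.863). MiR-130a-3p stood at 3529 to 4722 CPM in WT and 3869 to 8993 CPM in ZDF, with ZDF replicates 2 and 3 highest (log2FC 0.69, SE 0.35). MiR-138-5p, an inhibitor of osteoblast differentiation, was at 483 to 911 CPM in WT and 600 to 1729 CPM in ZDF (log2FC 0.66, SE 0.43). MiR-143-3p, the partner of miR-145-5p in a smooth muscle cluster, was at 3854 to 7775 CPM in WT and 2148 to 8239 CPM in ZDF (log2FC -0.37, SE 0.47). MiR-24-3p was at 11168 to 42423 and 15757 to 49999 CPM (log2FC 0.23, SE 0.50). None of these last 5 groups of values separated ZDF from WT.

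The remaining lists held no miRNA past the FDR threshold, and their counts of direction are to be read against the 61.5% of all tested miRNAs with a log2FC above 0. Of the osteoblast and mesenchymal list 10 of 13 were tested, 7 higher and 3 lower in ZDF, with a median log2FC of 0.42 and only miR-29b-3p at an unadjusted p below 0.05. The cartilage list was 2 of 4, 1 higher and 1 lower (median -0.044). The higher was miR-140-5p, with a log2FC of 0.38. The lower, miR-140-3p, the defining member of the list, was at 40881 to 43836 CPM in WT. In ZDF it was at 26113, 25966, 24852 and 45568 CPM (log2FC -0.46, SE 0.31). For miR-140-3p ZDF replicate 4 was above every WT serum, and the other ZDF sera were below every WT serum. The leukocyte list was 7 of 8, 3 higher and 4 lower (median -0.17), and the endothelial list was 4 of 5, 2 higher and 2 lower (median -0.087). The smooth muscle list was 2 of 4, both lower. The insulin sensitivity list, with miR-103-3p, miR-107-3p and the miR-29 family among its members, had 8 of 8 tested, 5 higher and 3 lower (median 0.45). The let-7 list was 8 of 9, 6 higher and 2 lower (median 0.28), and that of the miR-106b-25 and miR-17-92 clusters 12 of 12, 9 higher and 3 lower (median 0.034). The list of miR-23, miR-27 and miR-24 was 7 of 9, 3 higher and 4 lower (median -0.13).

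The most abundant miRNAs by mean CPM were miR-191a-5p, miR-92a-3p, miR-486, miR-16-5p and miR-29a-3p, on a scale that also carries differences in ligation between miRNAs. MiR-191a-5p was at 97760 to 273780 CPM in WT and 75546 to 180471 CPM in ZDF (log2FC -0.56, SE 0.43). MiR-92a-3p was at 66593 to 213775 CPM in WT and 69561 to 81912 CPM in ZDF (log2FC -0.64, SE 0.38). MiR-16-5p had a log2FC of 0.18 (SE 0.33), and miR-486, an erythrocyte miRNA, one of 0.012 (SE 0.64) with 163343, 17261, 18176 and 75682 CPM in ZDF against 45729 to 95776 CPM in WT.

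MiR-1247-5p was removed by the filter of the 8-library fit and was kept in the fit of 28 sera, where it was the only miRNA called for this contrast (1 of 198, 0.505%). It was chosen after its values were seen. It had 1, 1, 1 and 2 reads in the WT sera and 0, 73, 73 and 1 reads in the ZDF sera, so the difference lay in ZDF replicates 2 and 3 alone. Its log2FC in that fit was 4.45 (SE 1.15, FDR = 0.112), while all WT sera were under the floor of 3 reads and the groups overlapped. When all 458 miRNAs with a read entered the 8-library fit, 7 (1.53%) passed the threshold, 5 higher and 2 lower, among them miR-375-3p, miR-122-5p and miR-1247-5p. An earlier account of these data reports that such a fit makes calls in nearly all simulated data without any change. Its calls therefore cannot be read at the stated FDR. MiR-217-5p and miR-208a-3p were those called lower, and each had more than 3 reads in only some of the WT sera.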

How the data were processed

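Small RNA libraries were made by the authors from serum with added extraction controls (RealSeq-Biofluids kit, NextSeq550). Per the study's methods reads were trimmed with cutadapt, aligned by bowtie and miRDeep2, first to the Rnor 6.0 genome and then to rat miRBase miRNAs. The authors deposited whole-number read counts per mature miRNA without normalization, and these counts were tested here. RPM values deposited beside the counts refer to the whole library, and only library totals were computed from them. A further deposited scaling to miRNA reads was not used, and neither were the bone libraries. Control rows stayed out of the counts.

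The 8 libraries were grouped by their labels. Counts were fitted in R 4.3.3 with edgeR 4.0.16 (filterByExpr with a minimum count of 10, TMM, glmQLFit with the legacy option, glmQLFTest) and Benjamini-Hochberg adjustment over all 161 miRNAs kept of 458 with a read, at FDR < 0.2. The SE is the absolute log2FC divided by the square root of the F statistic. Differences of contrasts came from 28 sera in 6 groups. Single values were compared by exact two-sided permutation tests. DESeq2 1.42.0, other normalizations, filters, covariates and left-out libraries were alternatives. The scripts were tested on simulated data. Depth was 28015 to 161686 miRNA reads per library. Floors cover counting error only, since no molecular identifiers were used, whereas the SE also holds the spread between libraries.

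Named miRNAs were those past the threshold, then those whose groups did not overlap in order of p, all members of both study lists, list members on which a result turned, the 5 most abundant, and the 3 lowest p-values of each difference of contrasts. The comparison, its lists and this rule were chosen with earlier results of these data known. Mature sequences and positions are those of RefSeq on GRCr8.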

Additional observations from a re-analysis of the deposited data

Results flagged for a closer look

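In 2 of 66 groups of 4 sera 1 library lay far from the others by Dixon's test, which chance does in about 1 of 20 groups. MiR-192-5p in WT serum was 8509 CPM in replicate 2 and 3005 to 3770 CPM in the others (gap over range 0.861). MiR-199a-3p in ZDF serum was 251 CPM in replicate 1, from 7 reads, and 27.5 to 52.7 CPM in the others (gap over range 0.887). No difference between treatments in the genotype contrast passed its test.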

How the results depend on the processing

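No paired analysis was possible because the groups compared share no replicate number that the labels tie to a common animal, litter or day. The count past the FDR threshold was 0 of 161 with all miRNAs kept by the filter. With all miRNAs with a read it was 7 of 458, and 12 of 325 when these were filtered further by mean CPM. When the kept miRNAs were filtered so it was 1 of 117 (miR-375-3p). With the hemolysis ratio as a covariate it was 1 of 161 (miR-375-3p). It was 6 of 161 with DESeq2 and 1 of 198 (miR-1247-5p) in each of the fits of 32 and of 28 sera. It stayed 0 with other size factors, total miRNA reads, extraction controls or library reads as the scale, with other quasi-likelihood settings, at FDR < 0.05 and with each library left out. Among alternatives chosen after the data were seen it was 3 of 161 with the miRNA share as a covariate. It was 47 of 180 without ZDF replicates 1 and 4 and 5 of 162 without ZDF replicates 2 and 3. Both of these had a spread lowered by keeping sera that are alike. The difference from placebo gave 1 call (let-7f-2-3p) with all miRNAs with a read. Calls of fits with all miRNAs with a read cannot be read at the stated FDR, for the reason given above.

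Extraction controls as the scale moved the median log2FC of all miRNAs from 0.077 to 0.43 and library reads moved it to -0.22. The alternatives were followed for 23 tested miRNAs with an unadjusted p below 0.05, groups without overlap or a place on a study list. Of these, 16 kept their direction in every alternative. Many were picked for their difference in these same libraries, so this count is no evidence of a difference. The share over all tested miRNAs was not computed. With extraction controls as the scale the log2FC was 0.029 for miR-100-5p, 0.20 for miR-143-3p and 0.59 for miR-145-5p. For miR-218a-5p it was -0.72 with library reads as the scale, -1.35 with the miRNA share and -3.80 without ZDF replicates 1 and 4. Without ZDF replicates 2 and 3 it was 0.88 for miR-100-5p, 0.23 for miR-143-3p, -0.071 for miR-192-5p, -0.54 for miR-24-3p and -0.42 for miR-802-5p. With single libraries left out it ranged from -0.76 to 0.24 for miR-100-5p, from -0.24 to 0.60 for miR-24-3p and from -0.40 to 0.25 for miR-145-5p. The log2 difference of miRNA reads per control ranged from -0.044 (without WT replicate 4) to 0.70, and that of the hemolysis ratio from -0.18 (without ZDF replicate 1) to 0.71, with -0.0019 without WT replicate 3. The causes were not tested. Depth limits miRNAs near the floor of 3 reads, most of all in ZDF replicates 1 and 4.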

Other observations

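Among miRNAs that the filter on low counts removed, groups also failed to overlap for let-7f-2-3p, miR-200c-3p and miR-675-5p, which were chosen after their values were seen. They came from the miRNAs outside the 161 tested of 458 with a read. Among the 161 tested, 7 (4.35%) had groups without overlap, so such separation is no evidence of a difference. MiR-200c-3p, an epithelial miRNA, was at 25.4, 65.6, 68.9 and 19.4 CPM in WT and at 71.6, 116, 73.7 and 110 CPM in ZDF, from 1 to 18 reads. It was under the floor of 3 reads in WT replicates 1 and 4 and in ZDF replicate 1. Let-7f-2-3p had 0, 1, 1 and 0 reads in WT and 2, 10, 2 and 3 reads in ZDF, under the floor in every serum but ZDF replicates 2 and 4. MiR-675-5p, processed from the imprinted H19 transcript, had 0 reads in every WT serum and 1 read in every ZDF serum, which is under the floor in all of them.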
